A study of Homo sapiens with 18 samples.

Results

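The replication-dependent histone cluster genes were the features whose symbol begins with HIST followed by a cluster number from 1 to 4 and the letter H. They were chosen by this name alone, with earlier results of these data known. They numbered 30 of the 22027 features listed in either of the 2 expression tables. The inhibitor table held all 30 among 21391 features, and the siRNA table held 27 among 18350. By class they were 4 linker H1, 6 H2A, 12 H2B, 4 H3 and 4 H4 genes. By cluster, 19 belonged to HIST1 on chromosome 6, 7 to HIST2 and 2 to HIST3 on chromosome 1, and 1 to HIST4 on chromosome 12. The remaining feature was listed as HIST1H2BK in the inhibitor table beside the HIST1H2BK used here. The GENCODE v29 annotation names that identifier H2BFS, on chromosome 21. The HIST1 members lay between positions 26055787 and 27893106 of chromosome 6 (GRCh38, GENCODE v29). Since GENCODE v29 names 90 genes of these clusters, the values below describe a minority of the family.

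Replication-dependent histone genes supply the core and linker histones that package newly made DNA. Their mRNAs carry a short stem-loop in place of a poly(A) tail. The stem-loop is bound by SLBP, and processing with the U7 small nuclear ribonucleoprotein cuts the transcript just after it, so the mRNAs are made in S phase and destroyed at its end. A pair of H2A-H2B dimers and an H3-H4 tetramer form the nucleosome core, and H1 binds the linker DNA. Some of these genes can also give longer, polyadenylated transcripts in cells that have stopped dividing or are differentiating, and a library made from poly(A) RNA sees those best.

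RNA was sequenced from LNCaP, a human prostate cancer line that responds to androgen, kept in RPMI with 10% serum. In the inhibitor experiment, cells received 10 uM of UPF1069, olaparib or veliparib, or the solvent DMSO, for 24 h. Olaparib and veliparib are clinical inhibitors of PARP1 and PARP2, and UPF1069 is a research compound described as preferring PARP2. In the knockdown experiment, cells carried an siRNA for 72 h, either siPARP1-A or siPARP1-B against PARP1, siPARP2-A or siPARP2-B against PARP2, or the control siNC. Each of the 9 groups had 2 libraries, which the series calls biological duplicates, so each p-value rests on the spread between pairs of cultures of 1 line. The labels name total RNA and the NEBNext Ultra RNA kit but neither poly(A) selection nor removal of ribosomal RNA.

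The inhibitor libraries held 26.4 to 35.7 M reads and the siRNA libraries 15.5 to 18.6 M, so 3 reads were worth 0.0841 to 0.113 counts per M reads (CPM) and 0.169 to 0.207 normalised reads per M. PARP1 stood at 4.78 to 9.05 normalised reads per M with the siPARP1 sequences, against 452 to 479 with siNC. PARP2 stood at 1.01 to 3.06 with the siPARP2 sequences, against 25.8 to 29 with siNC. PARP1 was also lower with siPARP2-B, at 145 to 160 normalised reads per M. All 10 luminal prostate markers were listed in both tables, and their levels summed to between 4381 and 6077 CPM per inhibitor library and between 2856 and 7905 normalised reads per M per siRNA library. Basal markers summed to at most 0.929 CPM and 0.574 normalised reads per M, and immune markers to at most 0.125 CPM and 0.313. Of 3 basal and 4 immune markers, 1 each was listed in either table. Stromal markers, 3 of 4 listed, summed to 16 to 22.8 CPM per inhibitor library and to between 5.20 and 38.8 normalised reads per M with the siRNAs. Neuroendocrine markers, 1 of 3 listed, summed to 1.55 to 3.15 CPM and to 0.875 to 3.86 normalised reads per M. Endothelial markers, 1 of 2 listed, summed to 5.39 to 11.3 CPM and to 0.967 to 8.51 normalised reads per M.

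The histone stem-loop was found in 14 of the 29 members with a GENCODE v29 transcript, in 4 sequence forms. The sites below are shown because they are where the tailless mRNA ends, and a transcript that runs past them can end at a poly(A) signal instead. Each is written 5′ to 3′ as DNA letters from the GENCODE v29 transcripts (GRCh38), with the 16-base stem-loop in capitals and 7 bases either side. The first 3 lines are the genes with the largest changes from control among those with a site, and the last 3 show the other forms or a transcript that ends just after the site.
HIST1H2BD: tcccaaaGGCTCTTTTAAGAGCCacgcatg
HIST1H2BC: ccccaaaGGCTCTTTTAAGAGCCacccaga
HIST2H2BE: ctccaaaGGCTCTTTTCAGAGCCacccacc
HIST1H4H: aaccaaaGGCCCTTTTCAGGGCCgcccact
HIST1H2AG: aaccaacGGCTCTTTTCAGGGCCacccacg
HIST1H2BL: acccaaaGGCTCTTTTCAGAGCCactcact
The form in HIST2H2BE and HIST1H2BL was shared by 8 members, that in HIST1H4H by 3, that in HIST1H2BC and HIST1H2BD by 2, and that in HIST1H2AG was found in 1. Transcripts of HIST2H2BE, HIST1H4H and HIST1H2AG ran on for up to 1729, 1655 and 1761 bases after the site. The longest annotated HIST1H2BL transcript ended 40 bases after it. In all, 10 members had an annotated transcript ending within 35 bases of a poly(A) signal (HIST1H2AC, HIST1H2AG, HIST1H2BC, HIST1H2BD, HIST1H2BJ, HIST1H2BN, HIST1H4H, HIST2H2BE, HIST2H2BF and HIST3H2A). For 6 others among the members tested (HIST1H1B, HIST1H1C, HIST1H2BK, HIST1H3D, HIST1H4C and HIST2H2AC) the single annotated transcript, of 381 to 681 bases, held neither a stem-loop nor such an end, and the listed HIST2H2BC has no GENCODE v29 transcript. For these the annotation does not show how the mRNA ends.

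Histone genes are near-copies of each other, and reads from shared stretches may have been dropped or misplaced by the authors' counting. Every 50-base window of HIST1H3D also occurred in another gene's GENCODE v29 transcript. The share was 81.2% for HIST1H4J, 74.1% for HIST1H2BK, 62.3% for HIST1H2AI and 30.5% for HIST2H2AC. It was below 14% for the other H2A and H2B genes tested that have a GENCODE v29 transcript and 0 for HIST1H1B, HIST1H1C, HIST1H4C and HIST1H4H. Values for HIST1H3D, HIST1H4J, HIST1H2BK and HIST1H2AI are therefore uncertain as to which copy they describe.

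Read depth separated the members. Among the inhibitor libraries, 13 members averaged at least 100 reads per library (deep), 12 averaged 10 to under 100 (middle) and 5 fewer than 10 (shallow). Among the siRNA libraries these numbers were 9, 12 and 6. Members were tested where their mean over all libraries reached 1 unit, which left 20 in each table, 19 of them the same, and no shallow gene. The members that passed are those with enough signal to test, and counts over them do not describe the whole family.

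Summed over all listed members, histone cluster RNA was lowest with UPF1069 and highest with olaparib in the inhibitor experiment. The sums were 595 ± 4.32 CPM with UPF1069, 959.7 ± 7.61 with olaparib, 772 ± 23.9 with veliparib and 751 ± 3.22 with DMSO (mean ± SD, n = 2 each, here and for the sums below). These are ratios to DMSO of 0.792, 1.28 and 1.03. In the knockdown experiment the sum was highest with siPARP2-B and lowest with siPARP1-B. It came to 1300 ± 39.7 normalised reads per M with siPARP1-A, 778 ± 13 with siPARP1-B, 1018 ± 49.7 with siPARP2-A, 1623 ± 58.2 with siPARP2-B and 910.2 ± 15.6 with siNC. The libraries of every treated group lay outside their control pair for this sum, in the direction of the means. In bulk RNA, fewer cells making histone mRNA and less of it per cell cannot be told apart.

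How far the class sums moved differed between classes, although no test was run on the sums. The H1 sum, almost all of it HIST1H1C, was 2.02 times siNC with siPARP1-A and 1.90 times with siPARP2-B, whereas the H2A sum was 1.15 and 1.36 times siNC. The H2B sum reached 1.94 times siNC with siPARP2-B, at 930.1 ± 49.0 normalised reads per M against 478 ± 9.05 with siNC. The H4 sum was 1.47 times DMSO with olaparib, at 48.3 ± 1.19 CPM against 32.8 ± 1.38 CPM with DMSO. The sum of listed HIST1 members was 2.08 times siNC with siPARP2-B. That of listed HIST2 members, dominated by HIST2H2BE, was at 1.02 times and its libraries overlapped siNC. The HIST2 sum leaves out the gene GENCODE v29 calls HIST2H2BC, which fell outside the naming rule. That gene had 33.9 and 36.2 normalised reads per M with siNC and 14.5 and 14.3 with siPARP2-B. With siPARP1-B the HIST2 sum was 0.624 times siNC and the HIST1 sum 0.935 times. HIST3, mostly HIST3H2A, was 0.650 times DMSO with veliparib.

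**Figure D1:**
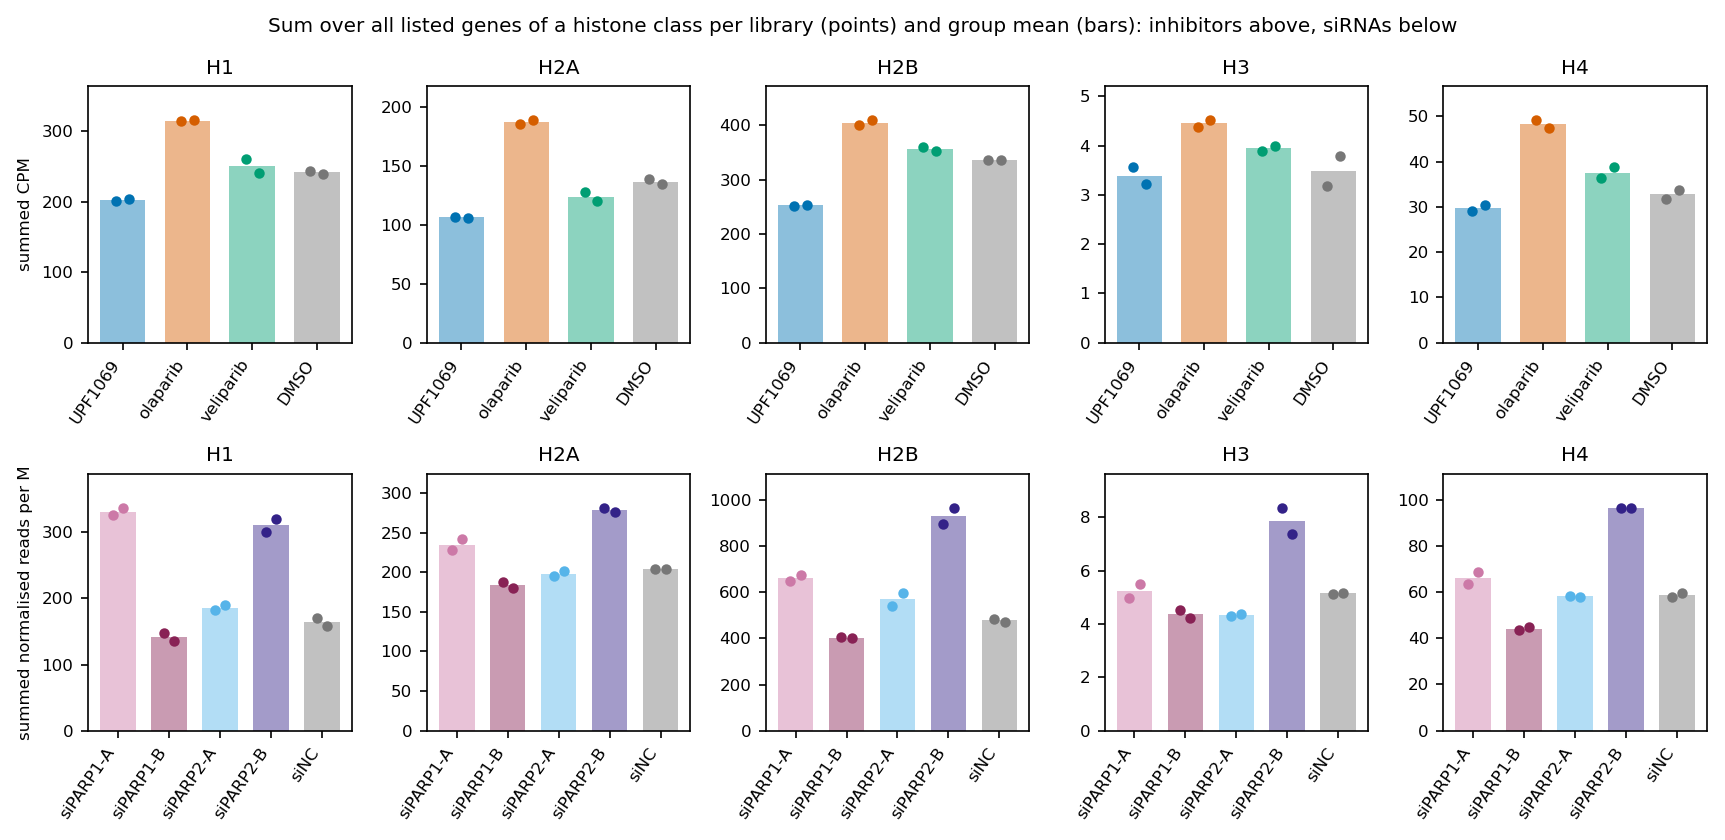
Sum of the deposited values over all listed genes of each histone class, in CPM for the inhibitor libraries (top) and normalised reads per M for the siRNA libraries (bottom). Points are libraries and bars group means (n = 2). Among the inhibitor groups the H2A and H4 sums are highest with olaparib, and among the siRNA groups the H2B sum is highest with siPARP2-B.

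The linker histone genes were represented in both tests by HIST1H1C, which encodes a major somatic H1. HIST1H1C had 199 and 203 CPM with UPF1069, 313 and 313 with olaparib, 257 and 237 with veliparib, and 241 and 237 with DMSO. Both olaparib libraries lay above DMSO, both UPF1069 libraries lay below it, and the veliparib pair overlapped it. HIST1H1C in the knockdown libraries had 324 and 335 normalised reads per M with siPARP1-A, 147 and 135 with siPARP1-B, 182 and 189 with siPARP2-A, 300.1 and 319 with siPARP2-B, and 168 and 157 with siNC. The siPARP1-A and siPARP2-B libraries stood far above the rest, siPARP2-A lay just above siNC and siPARP1-B just below it. HIST1H1B, another somatic H1 gene, was tested only in the inhibitor table, where it had 0.946 and 0.720 CPM with UPF1069, 0.605 and 0.729 with olaparib, 2.0 and 1.55 with veliparib, and 1.35 and 1.21 with DMSO. Its olaparib and UPF1069 libraries lay below both DMSO libraries, and its veliparib libraries above them. In the siRNA table HIST1H1B was too low to test, at 0.726 to 0.828 normalised reads per M with siPARP1-A and 0.0649 to 0.230 with siNC, or 12 to 13 against 1 to 4 reads.

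Among the H2A genes, which encode the H2A partner of H2B, HIST1H2AC had 65.9 and 63.3 CPM with UPF1069, 129 and 132 with olaparib, 89.2 and 84.0 with veliparib, and 90.1 and 87.6 with DMSO. The order was UPF1069 lowest and olaparib highest, with veliparib overlapping DMSO. HIST1H2AC had 187 and 199 normalised reads per M with siPARP1-A, 147 and 140.3 with siPARP1-B, 160.1 and 169 with siPARP2-A, 243 and 239 with siPARP2-B, and 169.9 and 168 with siNC in the knockdown. The siPARP2-B and siPARP1-A pairs lay above siNC, siPARP1-B lay below, and siPARP2-A overlapped it.

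HIST1H2AG had 9.17 and 8.95 CPM with UPF1069, 15.5 and 16.3 with olaparib, 13.7 and 12.9 with veliparib, and 12.7 and 12.9 with DMSO. UPF1069 again lay below and olaparib above DMSO, and the veliparib values were close to DMSO. HIST1H2AG had 17.2 and 20.8 normalised reads per M with siPARP1-A, 18.0 and 18.2 with siPARP1-B, 13 and 11.7 with siPARP2-A, 16 and 14.8 with siPARP2-B, and 11.4 and 12 with siNC. Both siPARP1 pairs and siPARP2-B lay above siNC, and siPARP2-A overlapped it. HIST1H2AI had 2.33 and 2.5 CPM with UPF1069, 3.15 and 3.50 with olaparib, 2.57 and 2.64 with veliparib, and 2.45 and 2.41 with DMSO. Only the UPF1069 pair overlapped DMSO, the olaparib and veliparib pairs lying above it. HIST1H2AI had 3.39 and 2.74 normalised reads per M with siPARP1-A, 2.73 and 2.69 with siPARP1-B, 2.26 and 1.81 with siPARP2-A, 4.40 and 3.83 with siPARP2-B, and 2.86 and 2.58 with siNC. The siPARP2-B pair was highest, the siPARP2-A pair lay below siNC, and the siPARP1 pairs overlapped siNC.

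HIST2H2AC had 1.89 and 2.16 CPM with UPF1069, 2.57 and 2.21 with olaparib, 2.36 and 2.3 with veliparib, and 2.59 and 2.62 with DMSO. Every treated library lay below both DMSO libraries, although none of the 3 comparisons passed the test. HIST2H2AC had 3.02 and 2.74 normalised reads per M with siPARP1-A, 1.80 and 1.73 with siPARP1-B, 1.16 and 1.56 with siPARP2-A, 0.773 and 0.845 with siPARP2-B, and 1.36 and 1.67 with siNC. Here siPARP1-A was highest and siPARP2-B lowest. HIST3H2A, from the small HIST3 cluster, had 27.8 and 28.8 CPM with UPF1069, 35.4 and 35.1 with olaparib, 20.0 and 18.2 with veliparib, and 30.8 and 29.6 with DMSO. Its veliparib libraries were the lowest, and its olaparib libraries the highest. HIST3H2A had 16.9 and 15.9 normalised reads per M with siPARP1-A, 17.4 and 17.3 with siPARP1-B, 18.3 and 17.3 with siPARP2-A, 16.8 and 16.6 with siPARP2-B, and 18.4 and 20.0 with siNC. All 8 knockdown libraries lay below both siNC libraries, and no comparison with siNC passed the test.

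Among the H2B genes, which encode the other partner of the H2A-H2B dimer, HIST1H2BC had 12.1 and 13.6 CPM with UPF1069, 24.5 and 26.2 with olaparib, 21.9 and 20.3 with veliparib, and 18.6 and 17.3 with DMSO. The UPF1069 pair lay below DMSO and the olaparib and veliparib pairs above it. HIST1H2BC had 23.9 and 25 normalised reads per M with siPARP1-A, 15.3 and 16.8 with siPARP1-B, 17.8 and 22.1 with siPARP2-A, 42.6 and 47.7 with siPARP2-B, and 15.3 and 16.7 with siNC. The siPARP2-B pair stood apart from all other libraries, siPARP1-A and siPARP2-A lay above siNC, and siPARP1-B overlapped it. HIST1H2BD had 15.2 and 14.6 CPM with UPF1069, 26.0 and 24.7 with olaparib, 18.4 and 20.0 with veliparib, and 17.4 and 17.9 with DMSO. UPF1069 lay below DMSO, olaparib well above it and veliparib slightly above it. HIST1H2BD had 25.3 and 30.5 normalised reads per M with siPARP1-A, 18.9 and 18.2 with siPARP1-B, 24.4 and 20.7 with siPARP2-A, 74.9 and 74.8 with siPARP2-B, and 24.1 and 28.4 with siNC. The siPARP2-B libraries stood apart, siPARP1-B lay below siNC, and the siPARP1-A and siPARP2-A pairs overlapped it.

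HIST1H2BJ had 7.06 and 5.42 CPM with UPF1069, 8.84 and 9.86 with olaparib, 14.8 and 13.6 with veliparib, and 15.0 and 14.4 with DMSO. The UPF1069 and olaparib pairs both lay below DMSO, a direction that most other members did not share with olaparib. HIST1H2BJ had 8.16 and 7.64 normalised reads per M with siPARP1-A, 3.46 and 2.76 with siPARP1-B, 1.71 and 3.06 with siPARP2-A, 4.58 and 4.06 with siPARP2-B, and 1.75 and 2.12 with siNC. The siPARP1-A libraries were highest, siPARP2-B and siPARP1-B lay above siNC, and the siPARP2-A pair spanned it. HIST1H2BK had 125 and 131 CPM with UPF1069, 166 and 167 with olaparib, 185 and 188 with veliparib, and 178 and 176 with DMSO. The UPF1069 pair was lowest by a wide margin, olaparib lay slightly below and veliparib slightly above DMSO. HIST1H2BK had 383 and 397 normalised reads per M with siPARP1-A, 221 and 213 with siPARP1-B, 300.3 and 344 with siPARP2-A, 536 and 593 with siPARP2-B, and 203 and 197 with siNC. All 8 knockdown libraries lay above both siNC libraries.

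HIST1H2BL had 2.62 and 2.97 CPM with UPF1069, 3.09 and 3.56 with olaparib, 2.86 and 3.85 with veliparib, and 3.42 and 3.62 with DMSO. The UPF1069 pair lay below DMSO, and the other pairs overlapped it. HIST1H2BL had 2.48 and 2.55 normalised reads per M with siPARP1-A, 1.80 and 3.04 with siPARP1-B, 1.77 and 2.44 with siPARP2-A, 2.02 and 1.63 with siPARP2-B, and 1.23 and 1.61 with siNC. All 8 knockdown libraries lay above siNC here too, but siPARP2-B only narrowly, at 1.63 against 1.61. Only the siPARP1 comparisons passed the test, and the siRNA libraries averaged 33 reads of this gene. HIST1H2BN, whose identifier carries the symbol HIST1H2AK in the inhibitor table, had 7.25 and 6.54 CPM with UPF1069, 7.54 and 8.69 with olaparib, 9.50 and 9.44 with veliparib, and 7.71 and 8.21 with DMSO. Veliparib lay above DMSO, UPF1069 below it, and olaparib spanned it. HIST1H2BN had 3.57 and 2.99 normalised reads per M with siPARP1-A, 4.79 and 4.49 with siPARP1-B, 4.34 and 5.44 with siPARP2-A, 4.10 and 4.62 with siPARP2-B, and 2.60 and 3.16 with siNC. The siPARP1-B, siPARP2-A and siPARP2-B pairs lay above siNC and siPARP1-A overlapped it.

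HIST2H2BE, an H2B gene known for its long polyadenylated transcript, had 77.6 and 75.5 CPM with UPF1069, 158 and 162 with olaparib, 103 and 91.5 with veliparib, and 91.2 and 93.6 with DMSO. Its olaparib libraries stood far above all others and its UPF1069 libraries below, while veliparib overlapped DMSO. HIST2H2BE had 199 and 204 normalised reads per M with siPARP1-A, 134 and 140.3 with siPARP1-B, 188 and 197 with siPARP2-A, 225 and 233 with siPARP2-B, and 232 and 217 with siNC. The siPARP1-B pair was lowest, siPARP1-A and siPARP2-A also lay below siNC, and siPARP2-B overlapped it. HIST2H2BF had 1.80 and 1.82 CPM with UPF1069, 4.09 and 4.09 with olaparib, 2.32 and 2.57 with veliparib, and 2.42 and 2.29 with DMSO. Olaparib was highest and UPF1069 lowest, with veliparib overlapping DMSO. HIST2H2BF had 2.60 and 3.44 normalised reads per M with siPARP1-A, 3.53 and 4.28 with siPARP1-B, 3.06 and 2.31 with siPARP2-A, 5.0 and 5.13 with siPARP2-B, and 3.117 and 3.62 with siNC. Only siPARP2-B lay above siNC, siPARP2-A lay below it, and the siPARP1 pairs overlapped it. The row named HIST2H2BC in the files, whose identifier GENCODE v29 does not hold, had 1.20 and 1.25 CPM with UPF1069, 1.54 and 0.981 with olaparib, 2.0 and 1.92 with veliparib, and 1.52 and 1.76 with DMSO. It had 1.39 and 1.34 normalised reads per M with siPARP1-A, 1.40 and 0.622 with siPARP1-B, 1.16 and 1.69 with siPARP2-A, 0.357 and 0.564 with siPARP2-B, and 0.779 and 1.15 with siNC. The siPARP2-B pair was the lowest of the siRNA table, and none of its 7 comparisons with a control passed the test.

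The single H3 gene tested in both tables, HIST1H3D, had 3.121 and 2.54 CPM with UPF1069, 3.63 and 3.59 with olaparib, 3.22 and 3.09 with veliparib, and 2.52 and 3.09 with DMSO. The olaparib and veliparib pairs lay above DMSO, veliparib narrowly, and UPF1069 overlapped it. HIST1H3D had 4.17 and 4.46 normalised reads per M with siPARP1-A, 3.40 and 3.11 with siPARP1-B, 3.43 and 3.75 with siPARP2-A, 7.49 and 6.14 with siPARP2-B, and 4.48 and 4.54 with siNC. The siPARP2-B pair lay above siNC, and the siPARP1-B and siPARP2-A pairs lay below it, as did siPARP1-A by a small margin. Since every stretch of this gene recurs elsewhere, these may be reads of other H3 copies.

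H4 genes all encode the same protein, yet the 3 tested in both tables behaved differently. HIST1H4C had 5.96 and 6.04 CPM with UPF1069, 3.27 and 2.75 with olaparib, 7.54 and 10.3 with veliparib, and 4.5 and 5.59 with DMSO. Olaparib was lowest, UPF1069 lay narrowly above DMSO, and veliparib was highest. HIST1H4C had 2.24 and 1.47 normalised reads per M with siPARP1-A, 1.66 and 1.66 with siPARP1-B, 1.77 and 1.88 with siPARP2-A, 0.238 and 0.338 with siPARP2-B, and 2.01 and 1.32 with siNC. The siPARP2-B libraries fell to 4 and 6 reads, against 31 and 23 reads with siNC, and the other knockdown pairs overlapped siNC. HIST1H4H had 21.4 and 22.6 CPM with UPF1069, 43.2 and 42.4 with olaparib, 26.9 and 26.9 with veliparib, and 25.4 and 26.6 with DMSO. Olaparib was highest, UPF1069 lowest and veliparib just above DMSO. HIST1H4H had 58.8 and 63.4 normalised reads per M with siPARP1-A, 40.0 and 41.1 with siPARP1-B, 54.6 and 54.6 with siPARP2-A, 93.3 and 94.0 with siPARP2-B, and 53.6 and 55.2 with siNC. The siPARP2-B pair was highest, siPARP1-A lay above siNC, siPARP1-B below it, and siPARP2-A within its range. HIST4H4 had 1.20 and 0.970 CPM with UPF1069, 1.48 and 1.54 with olaparib, 1.54 and 1.06 with veliparib, and 1.38 and 0.882 with DMSO. It had 1.69 and 1.72 normalised reads per M with siPARP1-A, 0.799 and 0.898 with siPARP1-B, 0.734 and 1.0 with siPARP2-A, 1.07 and 0.620 with siPARP2-B, and 0.909 and 1.26 with siNC. HIST4H4 passed in no comparison with a control, although the olaparib and siPARP1-A pairs lay wholly above their controls and siPARP1-B below. HIST1H4J, named HIST1H4K in the inhibitor table and tested only in the siRNA table, had 0.846 and 2.29 normalised reads per M with siPARP1-A, 0.999 and 1.17 with siPARP1-B, 1.04 and 0.625 with siPARP2-A, 1.61 and 1.30 with siPARP2-B, and 1.17 and 1.72 with siNC. Its comparisons all missed the threshold.

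**Figure D2:**
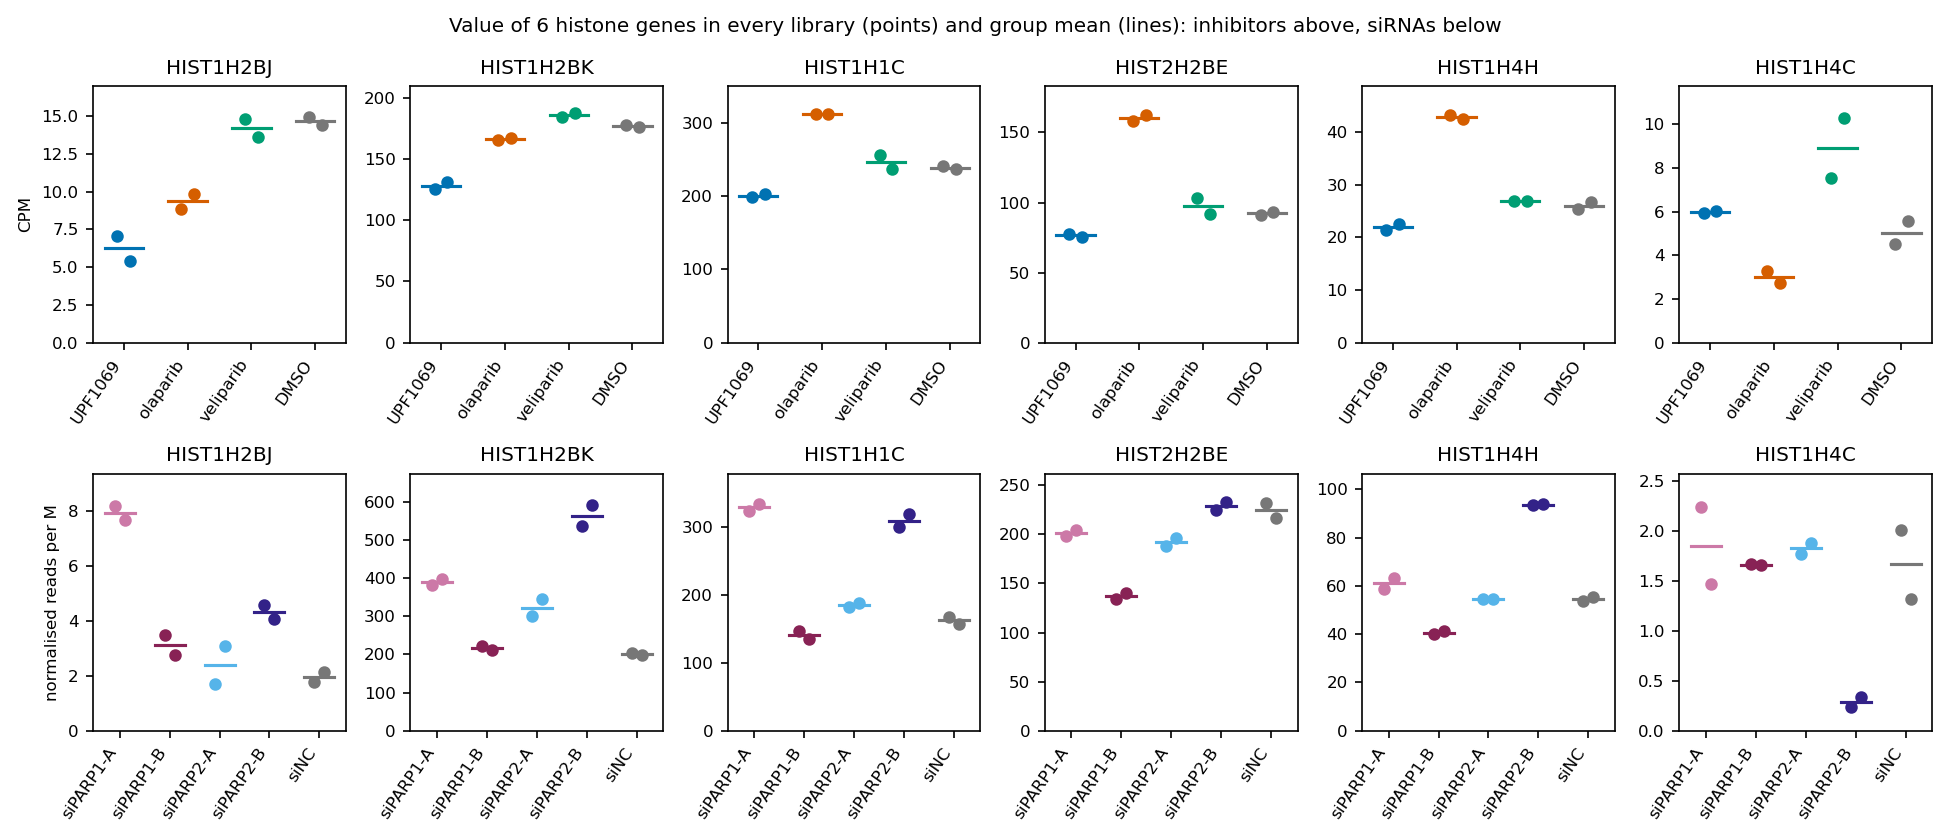
Values of 6 histone genes in every library (points) with the group mean (line), in CPM for inhibitors (top) and normalised reads per M for siRNAs (bottom). HIST1H2BJ is lowest with UPF1069 and highest with siPARP1-A, and HIST1H4C is lowest with olaparib and siPARP2-B while HIST1H4H is highest there.

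The tests below are of log2(value + 1), fitted over all genes of a table with limma, 2-sided, with p-values adjusted over all genes tested and a threshold of 0.05. A change is given on that log2 scale with its standard error, and it understates the fold of low genes. With UPF1069, 9 of the 20 members fell and 0 rose, where 14% of the 13337 genes tested fell and 10.3% rose, 24.3% in all. At an unadjusted p below 0.05 the numbers were 13 lower and 0 higher, and the shares of all genes at that threshold are not given here. Both edgeR and DESeq2 on the recovered reads also called 0 members higher, where edgeR called 19.6% of all genes it tested in either direction. The median change was -0.25, against -0.02 over all genes. HIST1H2BJ fell by 1.13 ± 0.10 (adjusted p = 1.1e-08), HIST1H2BK fell by 0.46 ± 0.04 (adjusted p = 8.33e-09) and HIST1H2AC fell by 0.45 ± 0.04 (adjusted p = 9.34e-08). HIST1H2BC fell by 0.45 ± 0.07 (adjusted p = 7.22e-05), HIST1H2AG fell by 0.45 ± 0.07 (adjusted p = 9.81e-05) and HIST2H2BE fell by 0.27 ± 0.05 (adjusted p = 0.000269). The 9 that fell were all of the deep class, where 9 of 13 passed, and included 5 of 9 H2B genes. Falls reached the H1, H2A, H2B and H4 classes, with HIST1H1C, HIST1H2BD and HIST1H4H making up the 9. All 6 calls given with values held in every alternative tried.

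With olaparib, 11 of the 20 members rose and 3 fell, where 25.8% of genes rose and 26.8% fell, 52.5% in all. The median change was 0.26, against 0.00 over all genes. HIST2H2BE rose by 0.79 ± 0.05 (adjusted p = 5.52e-12), HIST1H4H rose by 0.70 ± 0.06 (adjusted p = 8.1e-10) and HIST2H2BF rose by 0.60 ± 0.11 (adjusted p = 8.83e-05). HIST1H2AC rose by 0.55 ± 0.04 (adjusted p = 6.6e-10), HIST1H2BD rose by 0.50 ± 0.07 (adjusted p = 1.54e-06) and HIST1H2BC rose by 0.48 ± 0.07 (adjusted p = 7.63e-06). In the other direction, HIST1H2BJ fell by 0.60 ± 0.10 (adjusted p = 1.49e-05), HIST1H4C fell by 0.59 ± 0.12 (adjusted p = 0.000284) and HIST1H1B fell by 0.45 ± 0.14 (adjusted p = 0.00825). The HIST1H1B call ended without DMSO replicate 1 (adjusted p = 0.0642), without olaparib replicate 1 (0.0681) and with DESeq2 (0.058). With olaparib 4 of 5 H2A genes rose, while among the H4 genes HIST1H4H and HIST1H4C went opposite ways. Among the other rises, the HIST1H2AI call ended without either DMSO library (adjusted p = 0.0545 and 0.066), without olaparib replicate 2 (0.121) and with DESeq2 (0.133). The HIST3H2A call ended without DMSO replicate 2 (adjusted p = 0.0547), and the HIST1H3D call in 10 of 13 alternatives, for instance without DMSO replicate 1 (0.34).

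With veliparib, 3 of the 20 members rose and 1 fell, shares of the list that lie below the 17.2% of genes that rose and 23.2% that fell, 40.4% in all. HIST1H4C rose by 0.71 ± 0.12 (adjusted p = 7.07e-05) and HIST3H2A fell by 0.63 ± 0.06 (adjusted p = 3.73e-08), and both held in every alternative. HIST1H2BN rose by 0.23 ± 0.09 (adjusted p = 0.0488) and HIST1H2BC rose by 0.22 ± 0.07 (adjusted p = 0.0158). Neither of these calls was stable. The HIST1H2BN call ended in 11 of the 13 alternatives, including each of the 4 that left out a library (adjusted p from 0.0611 to 0.245). The HIST1H2BC call ended without DMSO replicate 2 (adjusted p = 0.156), without veliparib replicate 1 (0.0662) and when GC content and gene length were corrected for (0.173). The number called was 2 without either of these libraries and 7 after the GC and length correction. For HIST1H2BK, veliparib and DMSO differed by 0.07 (95% interval -0.01 to 0.15, adjusted p = 0.146).

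UPF1069 and olaparib both called 8 members, and 7 of these moved in opposite directions, HIST1H2BJ being lower with both. The 7 were HIST1H1C, HIST1H2AC, HIST1H2AG, HIST1H2BC, HIST1H2BD, HIST1H4H and HIST2H2BE. Both comparisons use the same DMSO libraries. How often all genes called with both compounds moved in opposite directions is not given here. Of the UPF1069 calls in this group, that of HIST1H2BD ended whichever of the 4 libraries was left out (adjusted p from 0.0586 to 0.145). That of HIST1H4H ended without DMSO replicate 2 (adjusted p = 0.0786) or UPF1069 replicate 1 (0.0851). The direct comparison needs no DMSO library. There 12 of 20 members were lower and 1 higher with UPF1069 than with olaparib, where 27% of genes were lower and 24.2% higher, 51.2% in all. The median difference was -0.36, against -0.02 over all genes, and all 7 genes were among the 12.

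UPF1069, olaparib and veliparib were used at the same dose and time, and their 3 pairs were each compared over all genes, the differences below being the first compound minus the second. Against olaparib, UPF1069 gave lower HIST2H2BE (-1.05, adjusted p = 3.7e-14), HIST1H2AC (-1.0, 2.1e-14), HIST1H2BC (-0.93, 3.63e-10) and HIST1H4H (-0.93, 7.37e-12). HIST2H2BF and HIST1H2AG followed at -0.86 and -0.75 (adjusted p = 1.06e-06 and 2.1e-08). The single member higher with UPF1069 was HIST1H4C, at 0.81 (adjusted p = 8.22e-06). For HIST1H2BN the difference was -0.20 (95% interval -0.39 to -0.02, adjusted p = 0.0604).

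Against veliparib, 14 members were lower and 1 higher with UPF1069, where 24.9% of genes were lower and 25.9% higher, 50.8% in all. The median was -0.34, against -0.01. HIST1H2BJ was at -1.08 ± 0.10 (adjusted p = 6.89e-09), HIST1H2BC was at -0.68 ± 0.07 (adjusted p = 9.23e-08) and HIST1H1B was at -0.60 ± 0.14 (adjusted p = 0.000958). HIST1H2BK was at -0.53 ± 0.04 (adjusted p = 3.26e-10), HIST1H2AG was at -0.50 ± 0.07 (adjusted p = 7.12e-06) and HIST1H4C was at -0.49 ± 0.12 (adjusted p = 0.0018). HIST3H2A was at 0.54 ± 0.06 (adjusted p = 1.58e-07). Of the 9 H2B genes, 8 were lower with UPF1069. Among these, the HIST2H2BF call ended in 9 of 13 alternatives, for instance with edgeR (adjusted p = 0.0541) and DESeq2 (0.2). The HIST2H2BC call ended in 2 of 11, DESeq2 among them (0.108).

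Between olaparib and veliparib, 10 members were higher and 5 lower with olaparib, where 31.7% of genes were higher and 27.7% lower, 59.5% in all. HIST3H2A was at 0.85 ± 0.06 (adjusted p = 5.45e-11), HIST2H2BE was at 0.72 ± 0.05 (adjusted p = 2.34e-11) and HIST1H4H was at 0.65 ± 0.06 (adjusted p = 1.88e-09). HIST1H2AC was at 0.58 ± 0.04 (adjusted p = 1.76e-10), HIST2H2BF was at 0.56 ± 0.11 (adjusted p = 0.000136) and HIST1H2BD was at 0.39 ± 0.07 (adjusted p = 3.25e-05). HIST1H4C was at -1.30 ± 0.12 (adjusted p = 4.99e-09), HIST1H1B was at -0.73 ± 0.14 (adjusted p = 8.28e-05) and HIST1H2BJ was at -0.56 ± 0.10 (adjusted p = 2.89e-05). The 2 other calls lower with olaparib were HIST2H2BC, at -0.40 ± 0.13 (adjusted p = 0.0137), and HIST1H2BK, at -0.16 ± 0.04 (adjusted p = 0.00111). The HIST2H2BC call ended without olaparib replicate 2 (adjusted p = 0.243) and with DESeq2 (0.123). For HIST2H2AC the difference was 0.02 (95% interval -0.21 to 0.26, adjusted p = 0.868).

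**Figure D3:**
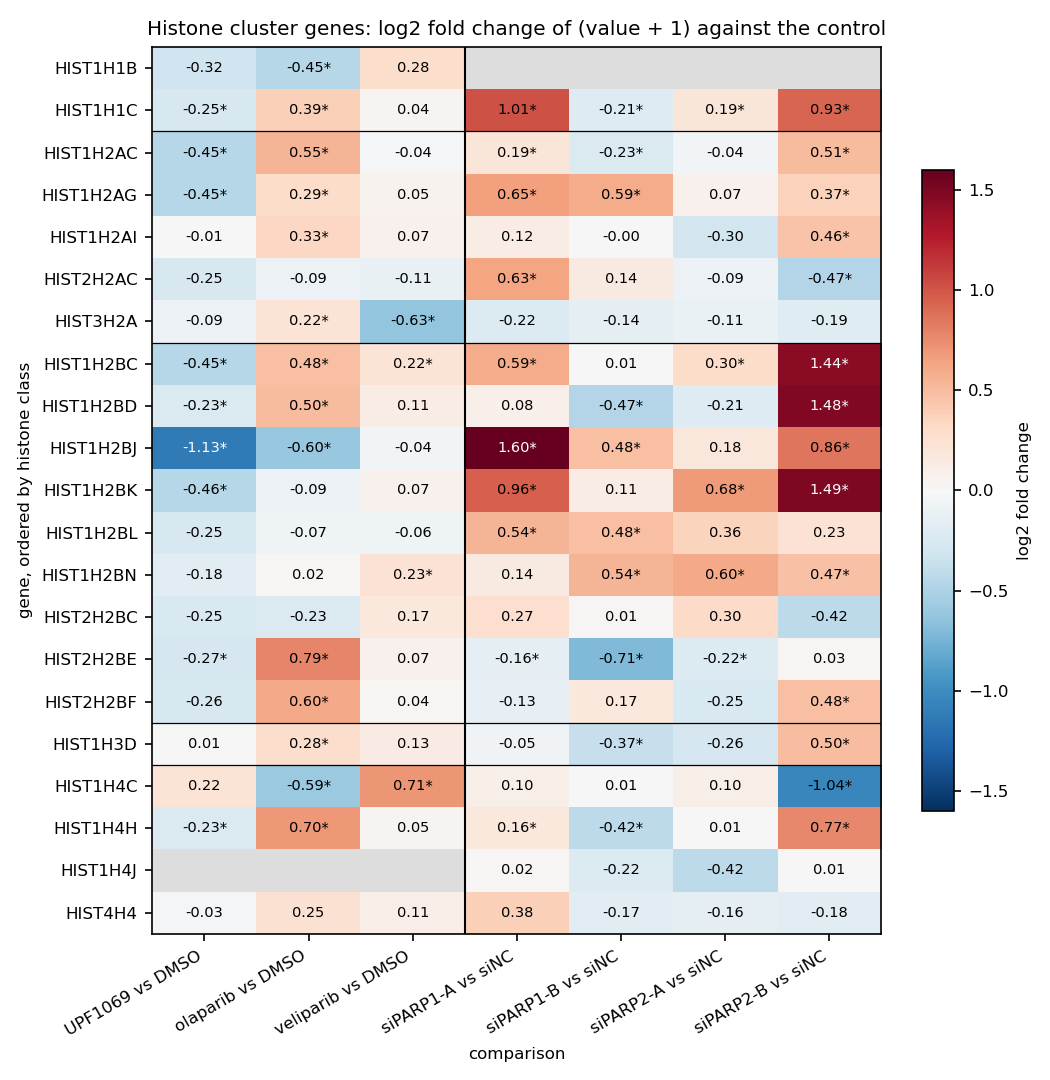
Log2 change of (value + 1) for each member tested, by histone class (rows) and comparison with the control (columns), where an asterisk marks an adjusted p below 0.05 and grey a gene not tested in that table. UPF1069 and olaparib columns take opposite colours for most H2A and H2B genes, and HIST1H2BJ is blue with both.

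With siPARP1-A, 9 of the 20 members rose and 1 fell, where 25.5% of the 12701 genes tested rose and 28.9% fell, 54.4% in all. The median change was 0.18, against -0.01 over all genes. HIST1H2BJ rose by 1.6 ± 0.17 (adjusted p = 2.12e-08), HIST1H1C rose by 1.01 ± 0.06 (adjusted p = 3.58e-13) and HIST1H2BK rose by 0.96 ± 0.06 (adjusted p = 3.36e-12). HIST1H2AG rose by 0.65 ± 0.11 (adjusted p = 1.49e-05), HIST2H2AC rose by 0.63 ± 0.17 (adjusted p = 0.00289) and HIST1H2BC rose by 0.59 ± 0.10 (adjusted p = 2.65e-05). HIST2H2BE fell by 0.16 ± 0.06 (adjusted p = 0.0231). The HIST2H2BE call ended without siNC replicate 1 (adjusted p = 0.175), without siPARP1-A replicate 1 (0.137) or replicate 2 (0.0525), and with libraries scaled to equal sums (0.211). The HIST2H2AC call ended with DESeq2 (0.0743) and in the replicate block with GC and length correction (0.0508). That last fit called 7 members higher and 2 lower, and its shares of all genes are not given here. Without siPARP1-A replicate 2, 6 members were called in all.

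With siPARP1-B, 4 members rose and 6 fell, where 16.4% of genes rose and 23.9% fell, 40.4% in all, so the members were called at rates near those of all genes. The median change was 0.00, against -0.03. The falls were in HIST2H2BE and in genes that rose with other siRNAs. HIST2H2BE fell by 0.71 ± 0.06 (adjusted p = 4.04e-10), HIST1H2BD fell by 0.47 ± 0.10 (adjusted p = 0.000446) and HIST1H4H fell by 0.42 ± 0.07 (adjusted p = 1.99e-05). HIST1H3D fell by 0.37 ± 0.14 (adjusted p = 0.0371), HIST1H2AC fell by 0.23 ± 0.06 (adjusted p = 0.00189) and HIST1H1C fell by 0.21 ± 0.06 (adjusted p = 0.00682). HIST1H2AG rose by 0.59 ± 0.11 (adjusted p = 9.71e-05) and HIST1H2BN rose by 0.54 ± 0.15 (adjusted p = 0.00545). HIST1H2BJ rose by 0.48 ± 0.17 (adjusted p = 0.0272) and HIST1H2BL rose by 0.48 ± 0.18 (adjusted p = 0.0412). Without siNC replicate 1 the calls of HIST1H2BN (adjusted p = 0.0684), HIST1H2BJ (0.167), HIST1H2BL (0.232), HIST1H3D (0.1) and HIST1H1C (0.0798) ended, leaving 5. Without siPARP1-B replicate 2, HIST1H1C (0.125) and HIST1H2BL (0.475) also missed the threshold. DESeq2 called 1 member higher and 5 lower, and the fit corrected for GC content and length 2 higher and 6 lower. For neither is the share of all genes given here. HIST2H2BE, HIST1H2BD, HIST1H4H, HIST1H2AC and HIST1H2AG held in every alternative.

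The siPARP1 sequences moved 4 of the 7 members that both called the same way. HIST1H2AG, HIST1H2BJ and HIST1H2BL were higher with both and HIST2H2BE lower with both, whereas HIST1H1C, HIST1H2AC and HIST1H4H were higher with siPARP1-A and lower with siPARP1-B. The HIST1H4H call with siPARP1-A ended in 5 of 13 alternatives (adjusted p from 0.0585 to 0.288), and the HIST1H2AC call without siPARP1-A replicate 2 (0.101). The HIST1H2BL calls ended in 6 alternatives with siPARP1-A, for instance without siNC replicate 1 (adjusted p = 0.129), and in 7 with siPARP1-B. Both comparisons share the siNC libraries. How often all genes called with both sequences moved the same way is not given here. Compared directly, 10 members were higher and 1 lower with siPARP1-A than with siPARP1-B, where 28.4% of genes were higher and 26.5% lower, 54.8% in all. The median difference was 0.37, against 0.02. HIST1H1C was at 1.22 ± 0.06 (adjusted p = 9.45e-15), HIST1H2BJ was at 1.12 ± 0.17 (adjusted p = 5.41e-06) and HIST1H2BK was at 0.84 ± 0.06 (adjusted p = 3.62e-11). HIST1H2BC was at 0.58 ± 0.10 (adjusted p = 3.02e-05), HIST1H4H was at 0.58 ± 0.07 (adjusted p = 6.32e-08) and HIST1H2BD was at 0.56 ± 0.10 (adjusted p = 3.63e-05). HIST1H2BN was at -0.40 ± 0.15 (adjusted p = 0.0269), a call that ended in 7 of 13 alternatives, for instance without siPARP1-A replicate 2 (adjusted p = 0.189). PARP1 itself was low with both sequences, as given above.

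With siPARP2-A, 4 members rose and 1 fell, where 24.5% of genes rose and 24.9% fell, 49.4% in all, so rises among the members were about as frequent as among all genes. The median change was -0.02, against 0.00. HIST1H2BK rose by 0.68 ± 0.06 (adjusted p = 3.04e-09) and HIST1H2BN rose by 0.60 ± 0.15 (adjusted p = 0.00185), and HIST2H2BE fell by 0.22 ± 0.06 (adjusted p = 0.00223). HIST1H2BC rose by 0.30 ± 0.10 (adjusted p = 0.0174) and HIST1H1C rose by 0.19 ± 0.06 (adjusted p = 0.0104). Without siPARP2-A replicate 2 these last calls ended (adjusted p = 0.329 and 0.0927), leaving 3 members called. They also ended without siNC replicate 1 for HIST1H2BC (0.126) and without siNC replicate 2 for HIST1H1C (0.11). The split depended on the correction for GC content and length, which called 2 members higher and 5 lower, and edgeR called 4 higher and 2 lower. Of all genes it tested, edgeR called 44.4% in either direction, and the share for the corrected fit is not given here.

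With siPARP2-B, 12 of the 20 members rose and 2 fell, where 30.9% of genes rose and 35.2% fell, 66.1% in all. The median change was 0.46, against -0.03 over all genes. HIST1H2BK rose by 1.49 ± 0.06 (adjusted p = 1.99e-16), HIST1H2BD rose by 1.48 ± 0.10 (adjusted p = 1.41e-12) and HIST1H2BC rose by 1.44 ± 0.10 (adjusted p = 4.11e-12). HIST1H1C rose by 0.93 ± 0.06 (adjusted p = 7.57e-13), HIST1H2BJ rose by 0.86 ± 0.17 (adjusted p = 0.000109) and HIST1H4H rose by 0.77 ± 0.07 (adjusted p = 1.94e-10). HIST1H4C fell by 1.04 ± 0.18 (adjusted p = 2.41e-05) and HIST2H2AC fell by 0.47 ± 0.17 (adjusted p = 0.0166). The HIST2H2AC call ended without siNC replicate 2 (adjusted p = 0.115), without siPARP2-B replicate 1 (0.0715) and with DESeq2 (0.127). The other 7 named calls held in every alternative. Scaling each library to the same sum moved the median of all genes by 0.16 in this comparison. Of the 19 members then tested 13 were called higher and 2 lower, and the shares of all genes after scaling are not given here.

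The members called higher with each siPARP2 sequence were HIST1H1C, HIST1H2BC, HIST1H2BK and HIST1H2BN, and both comparisons use the same siNC libraries. The matching share of all genes is not given here. As given above, the siPARP2-A calls of HIST1H1C and HIST1H2BC ended when 1 library was left out. The siPARP2-B call of HIST1H2BN ended in 3 of 13 alternatives, DESeq2 among them (adjusted p = 0.0766). Only HIST1H2BK held in every alternative with both sequences. Compared directly, 12 of 20 members were lower and 2 higher with siPARP2-A than with siPARP2-B, where 30.6% of genes were lower and 34.3% higher, 64.8% in all. The median difference was -0.49, against 0.02, and equal library sums moved the median of all genes by -0.18. HIST1H2BD was at -1.69 ± 0.10 (adjusted p = 1.17e-13), HIST1H2BC was at -1.15 ± 0.10 (adjusted p = 3.43e-10) and HIST1H2BK was at -0.81 ± 0.06 (adjusted p = 3.6e-11). HIST1H4H was at -0.77 ± 0.07 (adjusted p = 2.32e-10), HIST1H3D was at -0.76 ± 0.14 (adjusted p = 4.28e-05) and HIST1H2AI was at -0.75 ± 0.16 (adjusted p = 0.000164). HIST1H4C was at 1.13 ± 0.18 (adjusted p = 7.74e-06) and HIST2H2BC was at 0.73 ± 0.20 (adjusted p = 0.0029), the HIST2H2BC call ending without siPARP2-A replicate 2 (adjusted p = 0.0539). For HIST1H2BN the sequences differed by 0.13 (95% interval -0.18 to 0.44, adjusted p = 0.459). The lower PARP1 level with siPARP2-B moved with these differences, and its part in them was not tested.

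Taking the 7 comparisons with a control, 16 of 20 members passed the threshold with at least one inhibitor, and 16 of 20 with at least one siRNA. Of all genes tested, 73.6% did so with an inhibitor and 89.3% with an siRNA, so these counts of members lie near those of all genes. Among inhibitors 9 members were called in both directions, 4 higher alone and 3 lower alone, and among siRNAs 6, 8 and 2. Over all genes the shares were 12.6%, 27.8% and 33.3% with inhibitors, and 28.9%, 28% and 32.4% with siRNAs. The comparisons of a table share their control libraries. HIST1H1C, HIST1H2AG, HIST1H2BC, HIST1H2BK and HIST1H2BN each rose with 3 of the 4 siRNAs, and HIST2H2BE fell with 3. HIST1H2BJ fell with 2 inhibitors and rose with 3 siRNAs. How many of all genes were called the same way with 3 siRNAs is not given here. Among these genes only HIST1H2AG and HIST1H2BK kept all 3 siRNA calls in every alternative. The HIST1H2BN calls ended in 2 of 13 alternatives with siPARP1-B and 3 with siPARP2-B, and the HIST2H2BE call in 4 with siPARP1-A. Every call between groups, direct comparisons included, was of a gene whose libraries did not overlap. The matching share of all called genes is not given here, so this is not shown to be particular to the members.

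Members with and without an annotated transcript ending at a poly(A) signal, 10 of each in both tests, can be set side by side. With olaparib, 8 rose and 1 fell among those with such a transcript, with a median of 0.49, and 3 rose and 2 fell among those without, with a median of -0.08. With siPARP2-B the 10 with such a transcript had 8 rises and a median of 0.49, and the 10 without had 4 rises, 2 falls and a median of 0.12. With UPF1069, 7 with and 2 without such a transcript fell, and the medians were -0.26 and -0.25. With siPARP1-A the medians were 0.15 with and 0.33 without. Depth went with this split: 9 of the 10 with such a transcript were deep among inhibitor libraries and 7 among siRNA libraries, against 4 and 2 of the 10 without. The 10 without are those for which the annotation shows no such end, not genes shown to lack one. In the inhibitor test 6 of them have a transcript with neither a stem-loop nor such an end, in the siRNA test 5, and HIST2H2BC has no annotated transcript in either. They include HIST1H1C and HIST1H2BK, both called higher with siPARP1-A and siPARP2-B.

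**Figure D4:**
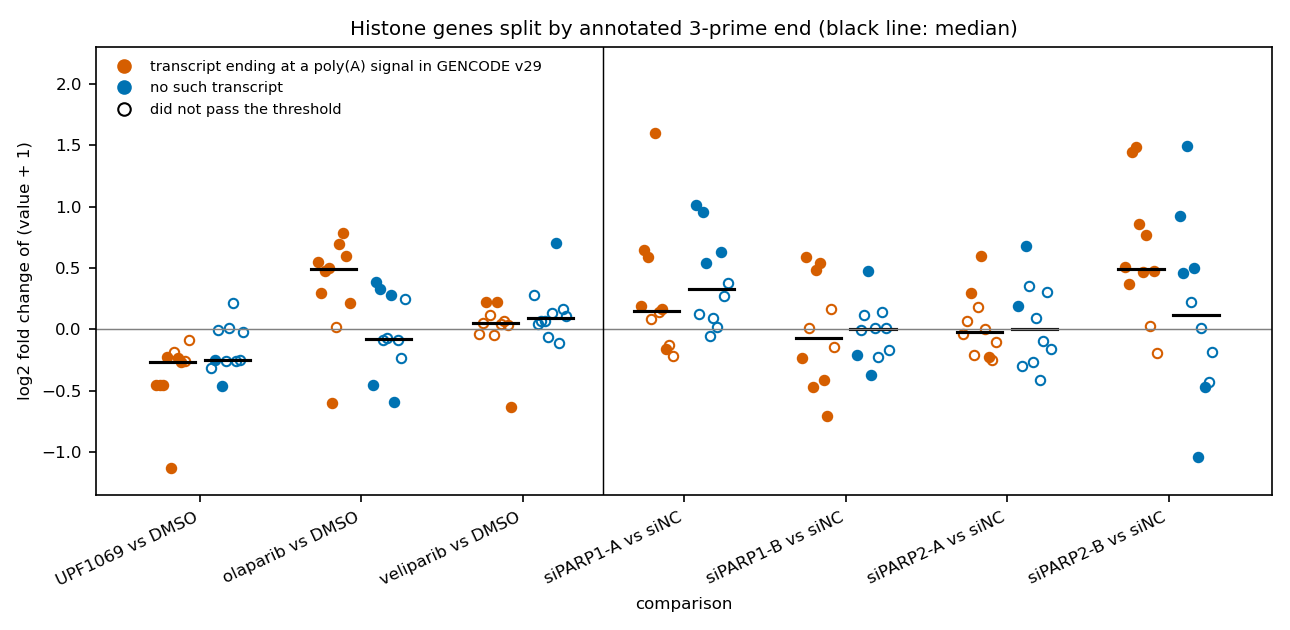
Log2 change of (value + 1) against the control for members with (orange) and without (blue) a GENCODE v29 transcript ending at a poly(A) signal. Filled points passed the threshold, open points did not, and black lines are medians. With olaparib the medians are 0.49 and -0.08, and with siPARP2-B 0.49 and 0.12.

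Histone genes often lie head to head, an H2B gene facing an H2A gene across one short promoter. The 300-base promoter windows of 5 such pairs overlapped by 253 to 271 bases, as the same DNA read on opposite strands. HIST1H2BC and HIST1H2AC changed together with UPF1069, olaparib, siPARP1-A and siPARP2-B, while with siPARP1-B HIST1H2AC was at -0.23 and HIST1H2BC at 0.01. HIST1H2BC was also called higher with siPARP2-A (0.30) and veliparib (0.22), where HIST1H2AC was at -0.04 and -0.04 and passed in neither. HIST1H2BJ and HIST1H2AG were called in opposite directions with olaparib, at -0.60 and 0.29, and in the same direction with UPF1069, both siPARP1 sequences and siPARP2-B. HIST2H2BE and HIST2H2AC were at 0.79 and -0.09 with olaparib, -0.16 and 0.63 with siPARP1-A, and 0.03 and -0.47 with siPARP2-B. No test of the difference within a pair was run.

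RefSeq held promoters for 24 members, from 250 bases before to 50 after each start. The HIST1H2BJ and HIST1H2BK promoters were the most alike of all 276 pairs, with 74.4% identical bases against a median of 50.6%. Each promoter was read in the direction of its own gene and aligned end to end with gaps allowed. Identity was counted over the aligned length. Read this way, the DNA that head-to-head pairs share on opposite strands is not matched. These promoters are printed because both genes fell with UPF1069 and rose with siPARP1-A and siPARP2-B. Such calls are not particular to the pair. HIST1H1C, HIST1H2AC, HIST1H2AG, HIST1H2BC and HIST1H4H were called in the same directions there, and the HIST1H4H promoter held none of the motifs marked below. With olaparib HIST1H2BJ fell, at -0.60, and HIST1H2BK was at -0.09 (95% interval -0.17 to -0.01, adjusted p = 0.059). Capitals mark the TATA box letters TATAAA, the octamer letters ATTTGCAT, and CCAAT, the letters NF-Y is known to bind, on either strand. The forward and reverse TATA letters overlap where TTTATAAA is written. The sequences are from RefSeq, GRCh38.p14.
HIST1H2BJ, chr6:27132746-27133045, strand -: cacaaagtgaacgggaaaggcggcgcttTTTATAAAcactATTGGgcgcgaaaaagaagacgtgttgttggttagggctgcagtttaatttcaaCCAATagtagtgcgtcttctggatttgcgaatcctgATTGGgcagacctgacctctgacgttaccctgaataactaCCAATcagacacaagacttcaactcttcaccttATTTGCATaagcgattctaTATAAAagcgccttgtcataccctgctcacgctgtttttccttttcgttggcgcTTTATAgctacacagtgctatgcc
HIST1H2BK, chr6:27146809-27147108, strand -: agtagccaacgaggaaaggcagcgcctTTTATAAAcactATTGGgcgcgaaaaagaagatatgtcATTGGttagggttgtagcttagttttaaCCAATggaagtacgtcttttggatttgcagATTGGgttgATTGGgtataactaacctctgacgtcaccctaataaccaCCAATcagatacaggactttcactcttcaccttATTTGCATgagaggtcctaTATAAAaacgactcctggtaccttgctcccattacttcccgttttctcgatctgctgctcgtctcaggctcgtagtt
Both hold an octamer followed by a TATA box just upstream of the start, and CCAAT boxes further up. TATAAA occurred in 62.5% of member promoters and 12% of all 27305 promoters of the same length, CCAAT in 87.5% and 35.7%, and ATTTGCAT in 41.7% and 1.80%. Head-to-head pairs share most of their windows, so a site there can count for both members. For ATTTGCAT both genes counted in the pairs HIST1H2BC and HIST1H2AC, HIST1H2BJ and HIST1H2AG, and HIST2H2BE and HIST2H2AC. These are matches of letters, not measured binding.

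Genes that make and process histone mRNA were listed beside the members, and the counts for these and the lists after them stand beside the shares of all genes tested that rose or fell. These were 10.3% and 14% with UPF1069, 25.8% and 26.8% with olaparib, 17.2% and 23.2% with veliparib, 25.5% and 28.9% with siPARP1-A, 16.4% and 23.9% with siPARP1-B, 24.5% and 24.9% with siPARP2-A, and 30.9% and 35.2% with siPARP2-B. Of 21 such genes tested, 9 fell and 2 rose with olaparib, 12 fell and 2 rose with siPARP1-A, and 7 rose and 6 fell with siPARP2-B, the last being close to the shares of all genes. SLBP, which binds the stem-loop and is also counted among the decay genes below, fell by 1.77 with siPARP2-B (adjusted p = 1.04e-17), with 36.7 ± 2.38 normalised reads per M with siPARP2-B and 128 ± 4.77 with siNC (mean ± SD, n = 2 each). It also fell with siPARP1-A (-0.52) and olaparib (-0.40), and stood at -0.07 with UPF1069, -0.01 with veliparib, 0.02 with siPARP1-B and 0.11 with siPARP2-A. NPAT, the coactivator of histone genes, fell by 0.66 with siPARP2-B and rose by 0.26 with veliparib. MIF4GD, a partner of SLBP in translation, and NCBP2, a cap-binding subunit, led the genes that rose with all 4 siRNAs, MIF4GD by 0.79, 0.97, 1.02 and 1.14 with siPARP1-A, siPARP1-B, siPARP2-A and siPARP2-B. CASP8AP2, a factor of histone pre-mRNA processing, rose by 0.46 with veliparib. With UPF1069, 4 fell and 1 rose, led by SRRT, which fell by 0.23. With veliparib 6 rose and 5 fell, with siPARP1-B 3 rose and 3 fell, and with siPARP2-A 6 rose and 2 fell.

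Of 17 genes of histone mRNA decay tested, 11 fell and 2 rose with olaparib, 6 rose and 3 fell with veliparib, and 8 fell with siPARP1-B. With siPARP1-A 5 rose and 6 fell, with siPARP2-A 7 rose and 6 fell, with siPARP2-B 6 rose and 5 fell, again close to the shares of all genes, and with UPF1069 3 fell. DCP2, a decapping enzyme, changed by -1.43 with siPARP1-B, -0.72 with siPARP2-A, -1.16 with siPARP2-B and -0.43 with olaparib. ZCCHC6, a uridylyltransferase that marks histone mRNAs for decay, changed by -0.81 with siPARP2-A, -1.0 with siPARP2-B and 0.34 with veliparib. LSM2, of the ring that binds RNA ends before decay, fell by 0.54 with olaparib.

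Among histone variant genes outside these clusters more fell than rose in all 7 comparisons with a control, as was true of all genes. Of 11 tested, 8 fell and 2 rose with UPF1069, 6 fell and 4 rose with olaparib, 6 fell with veliparib, 6 fell and 2 rose with siPARP1-A, 5 fell and 1 rose with each of siPARP1-B and siPARP2-A, and 8 fell and 1 rose with siPARP2-B. CENPA, the H3 variant of centromeres, changed by -2.21 with siPARP2-B, -0.98 with olaparib and -0.72 with UPF1069. H2AFX, the H2A variant phosphorylated at DNA breaks, changed by -1.98 with siPARP2-B, -0.67 with olaparib, -0.65 with veliparib and -0.53 with UPF1069. H1F0, the linker histone of resting cells, fell by 1.06 with siPARP2-A and rose by 0.49 with siPARP1-B. Of 23 histone chaperones, 18 fell and 2 rose with olaparib, 16 fell and 3 rose with siPARP2-B, 15 fell and 1 rose with siPARP1-A, and 8 fell and 4 rose with siPARP1-B. The numbers were 3 lower with UPF1069, 4 lower and 7 higher with veliparib, and 6 lower and 4 higher with siPARP2-A. HJURP, the chaperone of CENPA, fell by 3.46, and ASF1B, which hands over H3-H4, fell by 3.14 with siPARP2-B.

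Genes of S phase entry fell in the same groups in which many histone members rose. All 24 fell with siPARP2-B (median -1.43), 23 fell with olaparib (median -0.76), and 20 fell and 2 rose with siPARP1-A (median -0.56). CDC6, which loads the replicative helicase, fell by 3.20 and CCNA2, the S phase cyclin A, fell by 3.10 with siPARP2-B. FEN1, the flap nuclease of lagging strand synthesis, fell by 1.01 with siPARP1-A, where CCNA2 rose by 0.29. RRM2, a subunit of ribonucleotide reductase, changed by -3.84 with siPARP2-B and -1.05 with olaparib. With UPF1069, where members fell, 6 of the 24 fell and 3 rose (median -0.08), CCNA2 falling by 0.54 and CDT1 rising by 0.46. With siPARP1-B 10 fell and 3 rose, with siPARP2-A 8 rose and 3 fell, and with veliparib 7 fell. In the siPARP2-B comparison HIST1H4C fell as these genes did, and HIST1H4H rose. The part of cell cycle position in the histone values was not tested.

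Other RNAs without a poly(A) tail rose more often than they fell in every inhibitor group. Of 9 tested in the inhibitor table, 5 rose with UPF1069, 7 rose and 1 fell with olaparib, and 5 rose and 1 fell with veliparib. The ribosomal RNA28S5 had 774 ± 43.6 CPM with veliparib and 117 ± 2.34 with DMSO, and rose by 2.72. RN7SL1 rose by 2.47 with veliparib, and TERC rose by 1.04 with olaparib. RMRP and SNORD3A led with UPF1069, where the members fell. In the siRNA table only SNORD17 of this list could be tested, and it passed in no comparison with siNC. Its values moved by 0.32 with siPARP1-A and -0.37 with siPARP2-B. The part of such RNAs in the histone results was not tested.

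The members too low to test are given by their range, with no test. Among the inhibitor libraries HIST1H1E, a somatic H1 gene, was at 0.484 to 1.04 CPM with olaparib and 0.588 to 0.647 with DMSO, and HIST2H2BA, annotated as a pseudogene, at 0.303 to 0.308 with olaparib and 0.118 to 0.138 with DMSO. With the siRNAs HIST1H1E was at 0.367 to 0.500 normalised reads per M with siPARP2-A, 0.676 to 0.892 with siPARP2-B and 1.09 to 1.17 with siNC. HIST2H3D had 0.620 to 0.654 normalised reads per M with siPARP2-B and 0.0649 to 0.172 with siNC, or 11 and 11 reads against 1 and 3. HIST1H4J had 0.785 to 1.18 CPM with olaparib and 0.553 to 0.706 with DMSO. HIST1H1T, a testis H1 gene, had 0 to 4 reads per library, and a count of 0 allows up to 3 reads, counting error only. HIST2H2AB, HIST1H3J, HIST1H3PS1, HIST3H2BB and H2BFS stayed at or below 1.24 in either unit.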

How the data were processed

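Total RNA was sequenced from 18 libraries, 2 per group. The deposited inhibitor table holds CPM, which by their column sums are gene counts per 1000000 of a library size scaled by the authors. The deposited siRNA table holds a signal on the same kind of scale (normalised reads per M), with column sums of 964647 to 1122370. Per the submitters' processing notes, bcl2fastq 2.18, TopHat2 2.1.0, HTSeq 0.6.1 and edgeR 3.12.0 were used with hg19. How reads shared by near-identical histone genes were counted is not given in the sources used here.

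The tables were normalised apart and tested apart. Values with a mean of at least 1 were fitted as log2(value + 1) with limma 3.58.1 (trend, all groups of a table in 1 fit, R 4.3.3), and p-values were adjusted by the Benjamini-Hochberg method over all 13337 and 12701 genes tested. Low values came out as whole multiples of what 1 read is worth, for 100% of values within 0.01 reads. On these recovered reads, edgeR 4.0.16 called 3244, 7628 and 5425 genes for UPF1069, olaparib and veliparib and 7274, 5126, 6437 and 9008 for siPARP1-A, siPARP1-B, siPARP2-A and siPARP2-B. The direct comparisons gave 7315, 6899 and 8363 among inhibitors and 7247 and 8764 among siRNAs. DESeq2 1.42.0 was also run.

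The members, the gene lists and the tests were chosen with earlier results of these data known. Values in every library are given for the 19 members tested in both tables. Fold changes and adjusted p are given for members past the threshold whose groups did not overlap. Up to 6 with the largest change in each direction were taken. The related lists are described by counts and by some of their genes, mostly with the change alone. Members with other calls or none are named where a sentence describes them. The fits were tested on simulated data. Same-numbered libraries of different groups deviated with correlations from -0.14 to 0.11 over genes, so the replicate numbers do not pair them. Rows were joined by Ensembl identifier, since 2 symbols differ between the tables. Stem-loops, poly(A) signals and 50-base shared windows were searched in GENCODE v29 transcripts and promoters in RefSeq tables, both GRCh38, with Python 3.11.15. Limits of 3 reads cover counting error only.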

Additional observations from a re-analysis of the deposited data

Results flagged for a closer look

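GENCODE v29 names 8 genes of these clusters whose rows carry another symbol or none in a table and so fell outside the naming rule there. Of these, 5 had signal above 3 reads in every library of at least 1 table. HIST1H2BPS2 had 3 to 15 reads per inhibitor library, and HIST2H3PS2 had 3 to 21 and HIST2H2BA 0 to 5 reads per siRNA library. The strongest was the gene GENCODE v29 calls HIST2H2BC, a transcribed pseudogene on a different row from the HIST2H2BC of the files. It averaged 22.5 CPM over the inhibitor libraries (18.7 to 27.7) and 29.5 normalised reads per M over the siRNA libraries (14.3 to 39.6). It fell by 1.23 with siPARP2-B (limma, adjusted p = 2.02e-12) and stood at -0.30 with siPARP1-A, -0.26 with UPF1069 and 0.19 with veliparib. Between siPARP2-A and siPARP2-B it was at 1.09. HIST2H2BB averaged 1.16 normalised reads per M (0.563 to 2.07). Of the pseudogenes, HIST1H1PS1 averaged 0.757 CPM and 1.04 normalised reads per M, HIST1H4PS1 1.46 CPM and 0.922 normalised reads per M, and HIST2H2BD 0.42 CPM.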

How the results depend on the processing

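Up to 13 alternatives were run per comparison, and no call changed direction in any of them. Except for edgeR, the shares of all genes called in these alternatives are not given here. Of the 134 calls of single members, 96 held under every alternative, and of the 66 against a control 41 did. The count of members called with veliparib was 7 when GC content and length were corrected for, also in the fit that added the replicate block, and DESeq2 called 6 with siPARP1-B. The cause was not tested. Leaving out 1 library gave 2 to 6 members with veliparib, 6 to 9 with siPARP1-A, 5 to 8 with siPARP1-B and 3 to 7 with siPARP2-A. It gave 7 to 8 with UPF1069, 11 to 13 with olaparib and 11 to 13 with siPARP2-B. For the direct comparisons it gave 12 to 14 (UPF1069 and olaparib), 13 to 16 (UPF1069 and veliparib), 12 to 14 (olaparib and veliparib), 9 to 10 (siPARP1) and 12 to 14 (siPARP2). A lone library left in a group is assumed to vary like the other groups. With the replicate number as a block, 9, 13 and 3 members were called with UPF1069, olaparib and veliparib. The block gave 10, 10, 5 and 14 with siPARP1-A, siPARP1-B, siPARP2-A and siPARP2-B, and 13, 15, 15, 11 and 14 in the direct comparisons in the order above. Of the 45 class sums, 10 moved by more than 1 SD when low genes were left out and 20 when libraries were scaled to equal sums. Depth limits HIST1H4J, HIST1H4C, HIST1H2BL, HIST2H2AC, HIST2H2BC and HIST4H4 in the siRNA libraries, where several values rest on fewer than 30 reads.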
